A study of Homo sapiens with 4 samples.

Results

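Ribosome biogenesis was followed here through 36 genes that encode nucleolar proteins, in DU145 cells in which TAZ had been knocked down. DU145 is an established human prostate cancer cell line, and TAZ, listed under its gene symbol WWTR1, is a coactivator of transcription that the Hippo pathway restrains. The 36 genes were listed by name and role, and all 36 of 36 were found among the 19871 named genes of the table and among the 17737 genes tested. They cover 5 factors of RNA polymerase I, 3 box C/D and 4 box H/ACA proteins of small nucleolar ribonucleoproteins, 8 proteins of the small subunit processome, 11 large subunit assembly factors and 5 multifunctional nucleolar proteins. The groups were shTAZ, DU145 cells carrying short hairpin RNA against TAZ (2 libraries), and pLKO, DU145 cells carrying the lentiviral hairpin vector as control (2 libraries). The cells of both groups were kept in DMEM with 10% fetal bovine serum. The series used a pair of independent hairpins, and which shTAZ library carries which is not stated. The labels do not say whether the libraries of a group are separate cultures, so every p-value below rests on a spread among 4 libraries that could be purely technical. In the shTAZ group, a difference between hairpins cannot be told apart from a difference between libraries.

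Ribosomes are built in the nucleolus, where RNA polymerase I transcribes the ribosomal RNA precursor. Small nucleolar ribonucleoproteins then methylate and pseudouridylate that precursor, and large protein assemblies fold and cleave it into the RNAs of the small and the large subunit. Many of these genes are targets of MYC, whose partner MAX binds with it to the E-box CACGTG, and the demand for ribosomes is high in growing tumour cells.

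The E-box was looked for in the RefSeq promoters of the genes, since it is a sequence that MYC binds, though no binding was measured here. Windows of 250 bases before to 50 bases after the transcription start (RefSeq, GRCh38.p14) were at hand for 29 of the 36, and 13 of these 29 windows, or 44.8%, held CACGTG. The motif reads the same on both strands. It stood in 11.8% of the 12268 windows of genes tested and in 8.77% of all 27305 windows. The 13 genes were FBL, GAR1, WDR43, UTP20, RRP9, NOP14, BYSL, PES1, NOP2, GNL3, DDX21, MYBBP1A and LYAR. The stretches from 70 bases before to 21 bases after the start are shown 5′ to 3′ in the sense of the gene for the 4 of them whose shTAZ values both lay below both pLKO values (FBL, NOP14, GNL3 and LYAR), and for UTP20, the one of the 13 with a higher shTAZ mean. Capitals mark the E-box.
FBL (chr19:39846359-39846449, minus strand): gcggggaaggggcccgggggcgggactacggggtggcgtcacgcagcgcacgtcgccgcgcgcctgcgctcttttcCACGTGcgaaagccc
NOP14 (chr4:2963386-2963476, minus strand): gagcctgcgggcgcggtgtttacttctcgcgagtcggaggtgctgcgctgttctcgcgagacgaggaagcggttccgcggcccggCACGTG
GNL3 (chr3:52685962-52686052, plus strand): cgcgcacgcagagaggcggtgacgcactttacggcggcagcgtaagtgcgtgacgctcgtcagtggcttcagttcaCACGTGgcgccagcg
LYAR (chr4:4290001-4290091, minus strand): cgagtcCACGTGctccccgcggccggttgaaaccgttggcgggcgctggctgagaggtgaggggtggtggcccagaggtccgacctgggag
UTP20 (chr12:101280035-101280125, plus strand): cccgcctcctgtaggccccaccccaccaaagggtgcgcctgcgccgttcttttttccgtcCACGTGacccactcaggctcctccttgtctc
In FBL, GNL3 and NOP14 the motif lies just downstream of the annotated start, in UTP20 just upstream of it, and in LYAR near the far end of the stretch. The 13 genes with the motif had a median log2 fold change of -0.24 (shTAZ minus pLKO), with 12 of 13 lower in shTAZ cells. These 12 include GAR1 at -0.01 and WDR43 at -0.03. The 16 with a window but no such motif had a median of -0.21, with 12 of 16 lower. Of all genes tested, 51.0% were lower. Both shTAZ values lay below both pLKO values in 4 of the 13 and 3 of the 16, where 19.0% of all genes tested did. Whether the sets differ was not tested. TCOF1, NOP58, NOLC1, BOP1, RRP1B, RRS1 and DDX18 had no window in the table.

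The libraries held 14814918 and 12078623 reads in shTAZ cells, against 13681392 and 11687727 in pLKO cells, and values are given below as normalized reads, the counts divided by a size factor for each library. The targeted gene WWTR1 had 839 and 719 normalized reads in shTAZ cells, against 2508 and 3626 in pLKO cells (means 779 ± 84.4 and 3067 ± 790, SD, n = 2 each). This is a log2 fold change of -1.96 ± 0.20 (SE), and the adjusted p by limma was 0.0086. Epithelial markers were present in every library: KRT8 had 14618 and 8485 in shTAZ cells and 18494 and 24944 in pLKO cells. The 7 epithelial markers summed to 33313 and 23055 in shTAZ cells, against 35766 and 50392 in pLKO cells. Of these, 2 lay below both controls (KRT8 and KRT18), where 19.0% of all genes tested did. Another 4 lay above both (EPCAM, CDH1, CLDN7 and ESRP1), where 18.4% of all genes tested did. The log2 fold changes of the 7 ran from -0.95 for KRT8 to 2.20 for ESRP1, with a median of 0.56. The leukocyte gene PTPRC stood at no more than 0.886 in any library. The 9 leukocyte and endothelial markers found, nearly all of whose reads came from CD68, summed to 1219 and 1027 in shTAZ cells and 1291 and 1350.4 in pLKO cells. Of the 6 of them that were tested, 5 lay below both controls, where 19.0% of all genes tested did. Among these 5, PECAM1, CDH5 and VWF had no more than 12 reads in any library. The 5 fibroblast markers tested summed to 171 and 158 in shTAZ cells, against 105 and 55.2 in pLKO cells. Of these, 2 lay above both controls (18.4% of all genes tested), among them COL3A1 with no more than 3 reads in any library. The part of these marker differences in the results below was not tested.

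The transcripts of the 36 genes made up 0.706% and 0.574% of all reads in the shTAZ libraries, against 0.674% and 0.813% in the pLKO libraries. In bulk RNA, fewer cells with a transcript and less of it per cell cannot be told apart. Most members had a somewhat lower mean in shTAZ cells, and none passed the test. The mean of the log2 values was lower in shTAZ cells for 31 of the 36 and higher for 5 (HEATR1, POLR1A, UTP20, WDR12 and WDR75), where 51.0% of all genes tested were lower, as were 50.5% of those with a mean value of at least 20. The median log2 fold change over the 36 was -0.23, in a range of -0.60 for PPAN to 0.28 for UTP20, beside a median of -0.01 over all genes tested. By limma, 0 of the 36 had an adjusted p under 0.05, where 0.0113% of all genes tested did and 0.00564% did in the lower direction, and the smallest adjusted p was 0.690, for FBL. FBL alone had an unadjusted p under 0.05 in limma, in edgeR and in DESeq2, where 7.05% of all genes tested did by limma, and in limma-voom FBL and GNL3 did. With the trend on length and GC content removed, 0 of the 36 did. Neither edgeR's quasi-likelihood test nor DESeq2's Wald test on the recovered reads called a member, and their shares over the genes they tested were 0.0564% and 0.451%. The authors' deposited table gives each of the 36 an adjusted p and none of them is under 0.05, where 0.537% of its genes with an adjusted p are. In that deposited table FBL has a log2 fold change of -0.31 with an adjusted p of 0.752. The deposited fold changes can differ in size from those by limma, as for WWTR1 with -1.53 there and -1.96 here, so they are not directly comparable. With n = 2 each the intervals were wide: the median 95% interval reached 0.44 to either side on the log2 scale, and 35 of the 36 intervals held 0.

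The size of the difference varied with the library on either side, and for shTAZ 1 its sign varied with the control. Against pLKO 2, the median log2 difference over the 36 was -0.27 for shTAZ 1, with 32 of 36 lower (50.4% over all genes tested), and -0.59 for shTAZ 2, with 34 of 36 lower (50.7%). Against pLKO 1, it was -0.24 for shTAZ 2, with 27 of 36 lower (50.2%). The same difference was 0.14 for shTAZ 1 against pLKO 1, where 11 of 36 were lower (51.1%). The control libraries also differed from each other: pLKO 2 minus pLKO 1 had a median of 0.39, with 34 of 36 higher in pLKO 2 (51.0%), and the exceptions were TCOF1 and NHP2. The knockdown libraries differed too, since shTAZ 2 minus shTAZ 1 had a median of -0.28, with 33 of 36 lower in shTAZ 2 (49.6%). For 31 of the 36 genes the gap between the control libraries was larger than the log2 fold change between the groups, as it was for 59.6% of all genes tested. These differences share libraries and are not independent of each other. With pLKO 1 left out the median log2 fold change of the 36 was -0.46, with pLKO 2 left out it was -0.04, without shTAZ 1 it was -0.41 and without shTAZ 2 it was -0.05.

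**Figure D1:**
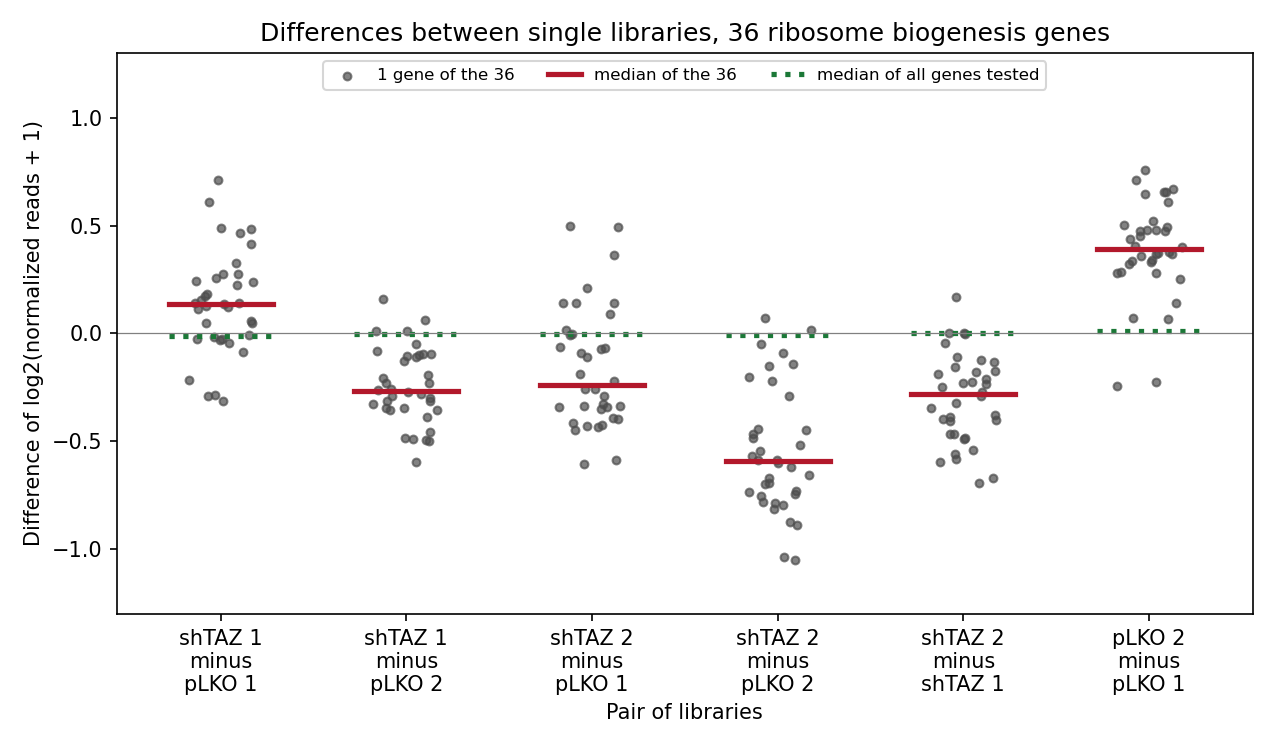
Each point is 1 of the 36 genes, and the vertical axis is the difference of log2(normalized reads + 1) between the 2 libraries named below it; the solid line is the median of the 36 and the dotted line the median of all genes tested. The medians of the 36 run from -0.59 (shTAZ 2 minus pLKO 2) to 0.14 (shTAZ 1 minus pLKO 1) between the groups, and stand at -0.28 between the shTAZ libraries and 0.39 between the pLKO libraries.

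Both shTAZ values lay below both pLKO values in 9 of the 36 genes, or 25%, a share near the background: this held for 19.0% of all genes tested and for 19.4% of those with a mean value of at least 20, as all 36 have. These were POLR1C, TCOF1, NOP58, FBL, NOP14, PPAN, GNL3, NPM1 and LYAR. POLR1A was the one gene with both shTAZ values above both pLKO values, where this held for 18.4% of all genes tested. In the other 26 the groups overlapped. pLKO 2 was the highest library for 30 of the 36 and shTAZ 2 the lowest for 26, and the order pLKO 2, shTAZ 1, pLKO 1, shTAZ 2 from high to low was found in 17. With 1 library left out the criterion is weaker, so the count can only stay or grow. It was 27 of 36 without shTAZ 1 (34.9% of all genes tested), 10 without shTAZ 2 (31.0%), 31 without pLKO 1 (37.0%) and 10 without pLKO 2 (36.8%).

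**Figure D2:**
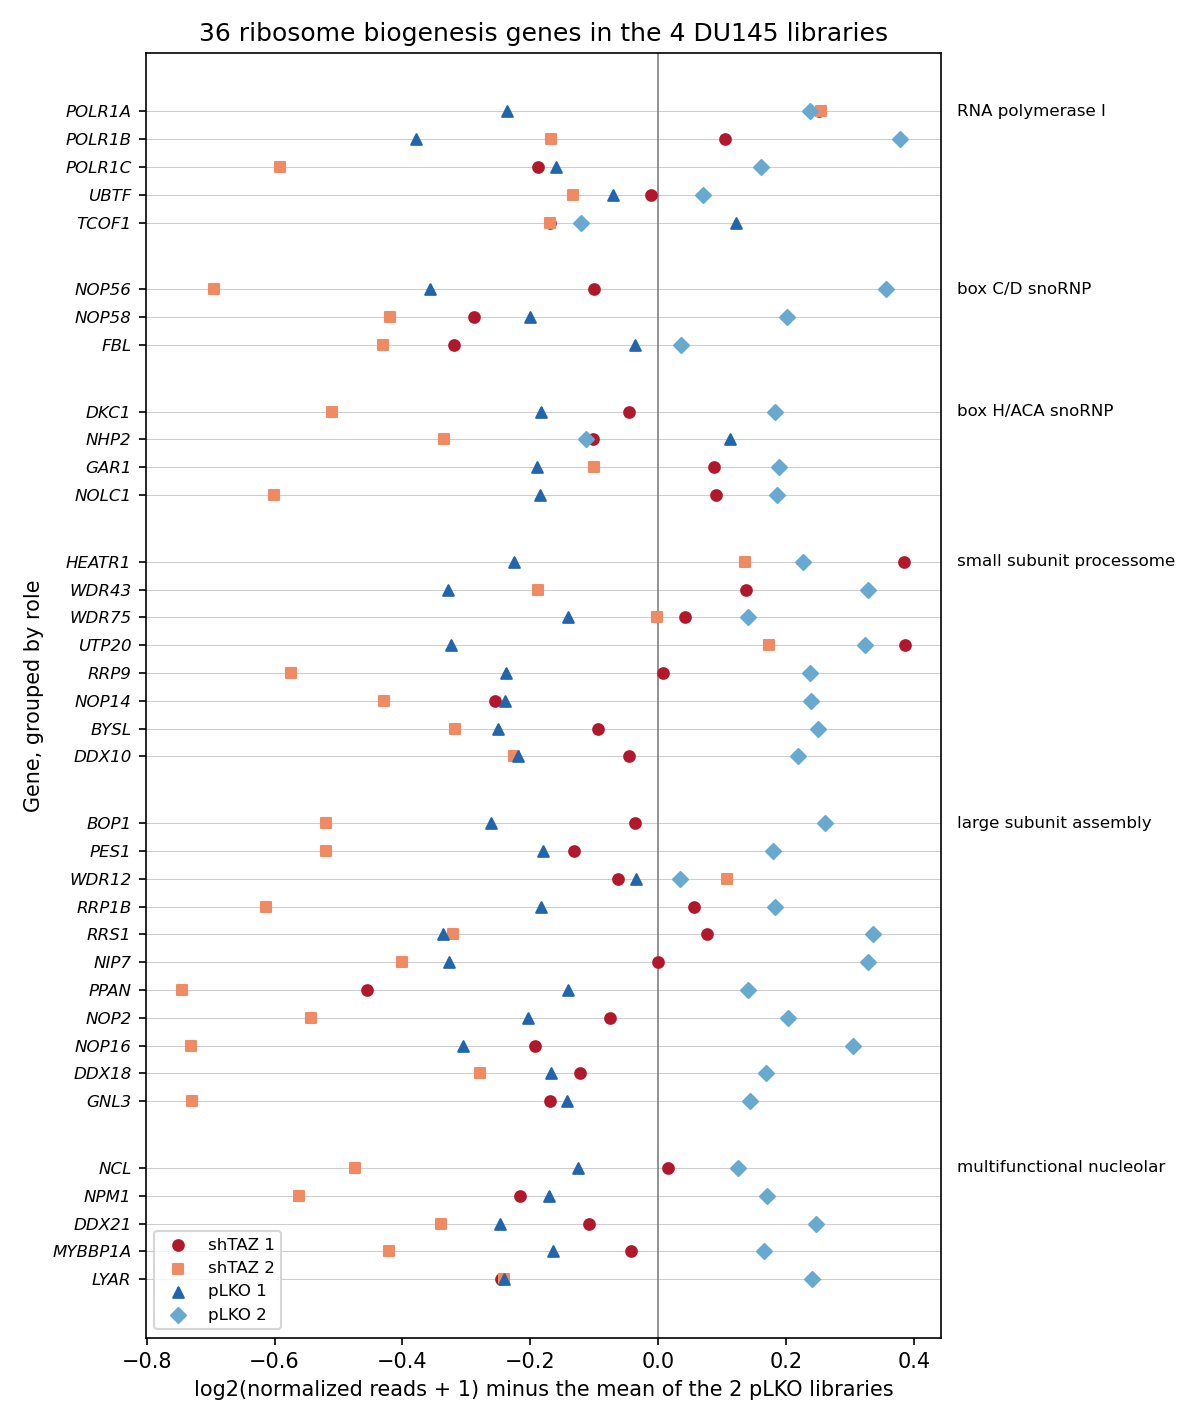
Rows are the 36 genes grouped by role, and the horizontal axis is log2(normalized reads + 1) in each library minus the mean of the 2 pLKO libraries. The pLKO 2 diamond stands furthest right in 30 rows and the shTAZ 2 square furthest left in 26.

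Among the RNA polymerase I factors the values went both ways, with a median log2 fold change of -0.07. POLR1A, which encodes the largest subunit of the enzyme, had 1521 and 1526 normalized reads in shTAZ cells, against 1084 and 1507 in pLKO cells. The shTAZ values were nearly equal to each other and just above pLKO 2, and pLKO 1 was the library that stood apart. The log2 fold change of POLR1A was 0.25 ± 0.19 (SE, limma adjusted p = 0.800). POLR1B, a catalytic subunit, had 942 and 779.6 in shTAZ cells and 673 and 1139 in pLKO cells, so that the controls enclosed the knockdown values and differed by 0.76 on the log2 scale, the widest control gap of the 36. POLR1C, a subunit shared with RNA polymerase III, had 835 and 631 in shTAZ cells and 851 and 1063 in pLKO cells, with shTAZ 2 lowest and shTAZ 1 close under pLKO 1 (log2 fold change -0.39 ± 0.20, SE). UBTF, which binds and opens the ribosomal DNA for transcription, had 2760.1 and 2536 in shTAZ cells and 2647 and 2920.4 in pLKO cells. Its groups overlapped, and its 95% interval of -0.42 to 0.28 on the log2 scale was among the narrower ones. TCOF1, the nucleolar protein treacle, had 2487 and 2487 in shTAZ cells and 3042 and 2571 in pLKO cells, with pLKO 1 the higher control, unlike most members.

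The core proteins of box C/D ribonucleoproteins, which methylate ribosomal RNA, had a median log2 fold change of -0.37, the lowest of the 6 roles. With the trend on length and GC content removed it was -0.26, and the multifunctional nucleolar proteins were lowest at -0.30. FBL, the methyltransferase fibrillarin, had 2819 and 2611 normalized reads in shTAZ cells, against 3432 and 3605 in pLKO cells (means 2715 ± 147 and 3519 ± 122, SD, n = 2 each). Both knockdown values lay below both control values and the gap between the controls was 0.07 on the log2 scale. The log2 fold change of FBL was -0.37 ± 0.16 (SE) and its 95% interval ran from -0.72 to -0.03. The unadjusted p was 0.037, and adjustment in limma over all genes tested made it 0.690. FBL has one of the shortest transcripts of the list, and with the trend on transcript length and GC content removed its log2 fold change was -0.17. NOP58, a scaffold protein of the same particle, had 1549 and 1413 in shTAZ cells and 1645 and 2174 in pLKO cells, where pLKO 2 alone stood high. NOP56, its partner, had 3550.0 and 2351 in shTAZ cells and 2973 and 4874 in pLKO cells, and here shTAZ 1 exceeded pLKO 1 while shTAZ 2 was the lowest of the 4. Their log2 fold changes were -0.35 ± 0.18 for NOP58 and -0.40 ± 0.25 for NOP56 (SE), and neither passed.

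In all 4 genes of the box H/ACA ribonucleoproteins, which convert uridine to pseudouridine, the groups overlapped, and their median log2 fold change was -0.24. DKC1, the pseudouridine synthase dyskerin, had 2639.7 and 1913 in shTAZ cells and 2399 and 3094 in pLKO cells, so that shTAZ 2 was lowest and shTAZ 1 lay between the controls. NOLC1, a chaperone of these particles, had 6816 and 4222 in shTAZ cells and 5631 and 7281 in pLKO cells. The gap between its knockdown libraries, -0.69 on the log2 scale, was the widest of the 36. NHP2, a core protein of the particle, had 1201 and 1021 in shTAZ cells and 1394 and 1192 in pLKO cells. GAR1, another core protein, had 363 and 319 in shTAZ cells and 299.6 and 389.9 in pLKO cells, with a log2 fold change of -0.01 ± 0.21 (SE).

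The small subunit processome, the assembly that folds and cleaves the small subunit side of the precursor, had a median log2 fold change of -0.08 and held 3 of the 5 genes with a higher mean in shTAZ cells. UTP20, a large scaffold protein, had 2422 and 2089.7 normalized reads in shTAZ cells, against 1479.6 and 2320.0 in pLKO cells. HEATR1, which also links the processome to RNA polymerase I transcription, had 1407 and 1184 in shTAZ cells and 921 and 1261 in pLKO cells. In both genes pLKO 1 was the low library, and pLKO 2 lay between the knockdown values. Their log2 fold changes were 0.28 ± 0.21 for UTP20 and 0.26 ± 0.19 for HEATR1 (SE). WDR43 had 2620.2 and 2093 in shTAZ cells and 1898 and 2992 in pLKO cells, and WDR75 had 799.6 and 775 in shTAZ cells and 704 and 856 in pLKO cells. For both of these beta-propeller subunits of the processome the controls enclosed the knockdown values. NOP14, a processome factor, was the one gene of this role with both knockdown values below both controls, with 1551 and 1375 in shTAZ cells and 1568 and 2184 in pLKO cells. Its shTAZ 1 value was close to that of pLKO 1. RRP9, a protein of the ribonucleoprotein that directs the early cleavages, had 487 and 325 in shTAZ cells and 411 and 572 in pLKO cells. BYSL, the assembly factor bystin, had 1151 and 986 in shTAZ cells and 1032 and 1462 in pLKO cells, and the helicase DDX10 had 729.7 and 644 in shTAZ cells and 647 and 876 in pLKO cells. In RRP9, BYSL and DDX10 pLKO 2 was the highest library and shTAZ 2 the lowest.

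The 11 large subunit assembly factors had a median log2 fold change of -0.28, and 10 of 11 had a lower mean in shTAZ cells. GNL3, the nucleolar GTPase nucleostemin, had 1782 and 1209 normalized reads in shTAZ cells, against 1814 and 2213 in pLKO cells. The groups did not overlap, with shTAZ 1 close under pLKO 1 and shTAZ 2 the lowest. GNL3 had a log2 fold change of -0.45 ± 0.21 (SE), an unadjusted p of 0.0518 and, by limma, an adjusted p of 0.711. PPAN, a nucleolar assembly factor, had the fewest reads of the list, 46.0 and 37.5 normalized reads in shTAZ cells, against 57.5 and 70.2 in pLKO cells, and the lowest log2 fold change, -0.60 ± 0.33 (SE, limma adjusted p = 0.737). Its values are uncertain, since a readthrough transcript with the neighbouring P2RY11 shares its exons. NOP16, a nucleolar protein of the large subunit precursor, had 762 and 524 in shTAZ cells and 704 and 1075 in pLKO cells, which gives a log2 fold change of -0.46 ± 0.24 (SE). Here shTAZ 1 lay above pLKO 1.

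PES1, BOP1 and WDR12 form the PeBoW complex, which processes the large subunit RNAs. PES1 had 1940.2 and 1483 in shTAZ cells and 1877 and 2409 in pLKO cells. BOP1 had 1398 and 1001 in shTAZ cells and 1197 and 1719.6 in pLKO cells. Both ran highest in pLKO 2 and lowest in shTAZ 2. WDR12 was ordered differently: it had 412 and 464 in shTAZ cells and 420.2 and 441 in pLKO cells, with shTAZ 2 the highest library. The log2 fold changes of the 3 were -0.33 ± 0.19 for PES1, -0.28 ± 0.22 for BOP1 and 0.02 ± 0.18 for WDR12 (SE).

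NOP2, a methyltransferase of the large subunit RNA, had 1787 and 1292 in shTAZ cells and 1634 and 2168 in pLKO cells. RRP1B, a nucleolar processing factor, had 2869.9 and 1804 in shTAZ cells and 2432 and 3136 in pLKO cells. RRS1, which helps to bring the smallest ribosomal RNA into the particle, had 1624 and 1233 in shTAZ cells and 1219.8 and 1944 in pLKO cells. In these 3 genes shTAZ 1 lay between the controls, and in RRS1 shTAZ 2 lay there too. NIP7, which takes part in ribosomal RNA processing, had 1037 and 786 in shTAZ cells and 827 and 1302 in pLKO cells. The helicase DDX18 had 1460.2 and 1310.1 in shTAZ cells and 1414 and 1785 in pLKO cells, and in both of these genes shTAZ 2 was lowest and pLKO 2 highest.

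The multifunctional nucleolar proteins include the most abundant transcripts of the list. Scaled to transcript length and depth (RPKM), NPM1 stood at 557 in shTAZ cells and 717 in pLKO cells on average, and NCL at 264 in shTAZ cells and 301 in pLKO cells. At the other end, WDR12 averaged 4.22 in shTAZ cells and 4.07 in pLKO cells on this scale, and PPAN 1.96 in shTAZ cells and 2.95 in pLKO cells. The scale uses the longest coding transcript of each gene, 8100 bases for WDR12, which need not be the one expressed. NCL and NPM1 together took 0.230% and 0.179% of all reads in the shTAZ libraries, against 0.229% and 0.266% in the pLKO libraries. NPM1, the histone chaperone nucleophosmin, had 14098 and 11086 normalized reads in shTAZ cells, against 14538 and 18428 in pLKO cells. All 4 values were spread, with shTAZ 1 close under pLKO 1, and the log2 fold change was -0.39 ± 0.20 (SE, limma adjusted p = 0.730). NPM1 has many processed pseudogenes that could share its reads, so its values are uncertain. NCL, nucleolin, which binds the ribosomal RNA precursor, had 15992 and 11397 in shTAZ cells and 14509.9 and 17263 in pLKO cells, and shTAZ 1 lay between the controls.

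DDX21, a helicase of nucleolar RNA, had 5117 and 4359.7 in shTAZ cells and 4646 and 6546 in pLKO cells. MYBBP1A, a nucleolar corepressor of ribosomal RNA synthesis, had 2664 and 2050.1 in shTAZ cells and 2448 and 3077 in pLKO cells. In both, pLKO 2 was highest and shTAZ 2 lowest. LYAR, a nucleolar zinc finger protein, had 862 and 865 in shTAZ cells and 865 and 1209 in pLKO cells. Its groups failed to overlap by less than 1 read, since shTAZ 1, shTAZ 2 and pLKO 1 were nearly equal and pLKO 2 alone stood high.

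Fold change went with transcript length within the list. Across the 36 genes, the log2 length of the longest coding transcript (GENCODE 29) and the log2 fold change had a Pearson r of 0.65 and a Spearman rho of 0.55, as a description over genes that share the same 4 libraries. Over the 14580 genes tested with a length, these were 0.24 and 0.30. The longest transcript of a gene need not be the one expressed. The 18 members under 3000 bases had a median log2 fold change of -0.30, beside -0.09 for all such genes. The 13 members of at least 3000 and under 6000 bases had a median of -0.23, beside 0.03 for all such genes. The 5 members of 6000 bases or more, POLR1A, HEATR1, UTP20, DDX10 and WDR12, had a median of 0.25, beside 0.17 for all such genes. With the trend on length and GC content removed over the whole table, the median of these 5 was 0.01 and that of the 36 was -0.21, and 7 of the 36 lay below both controls. The gap between the control libraries had a Pearson r of 0.10 and a Spearman rho of 0.01 with length over the 36.

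**Figure D3:**
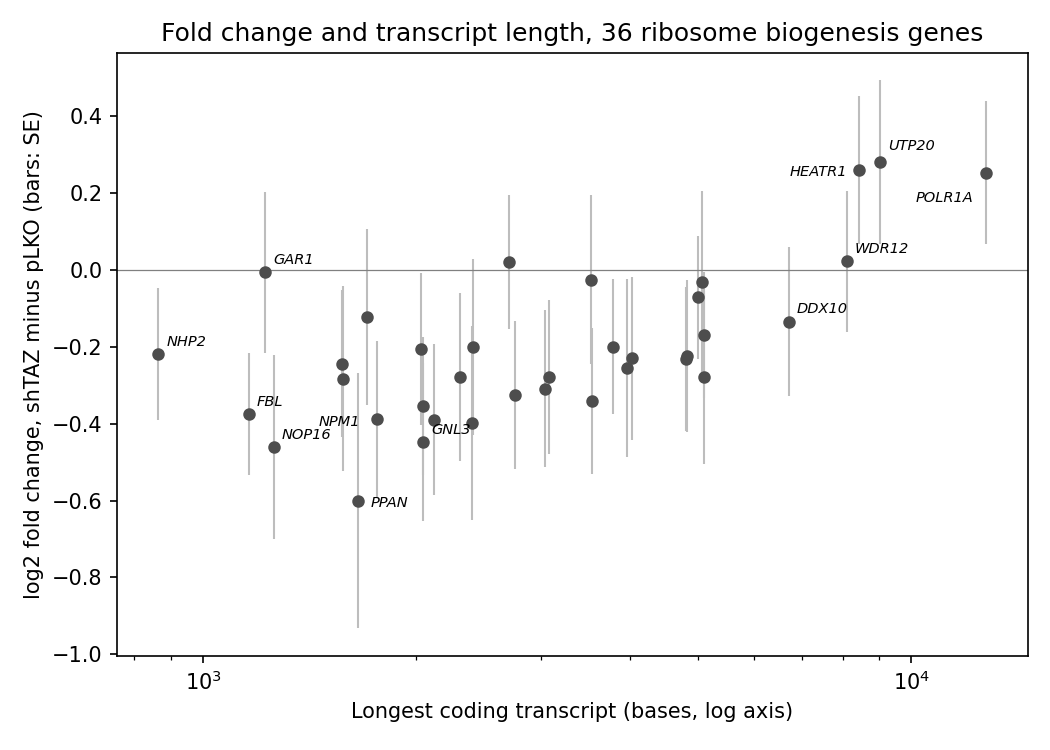
Each point is 1 of the 36 genes, with the length of its longest coding transcript on a log axis and its log2 fold change (shTAZ minus pLKO) with bars of 1 SE. The 5 transcripts of 6000 bases or more have a median of 0.25 and the 18 under 3000 bases a median of -0.30.

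The wider pathway was read from lists of other factors. Of 115 other ribosome biogenesis genes tested, 97 had a lower mean in shTAZ cells, 39 had both knockdown values below both controls (33.9%, beside the 19.0% of all genes tested), 4 had both above, and 0 passed limma's adjusted threshold. Their median log2 fold change was -0.18, but for shTAZ 1 the sign varied with the control. Against pLKO 1, the median difference was 0.07 for shTAZ 1, with 43 of 115 lower, and -0.14 for shTAZ 2, with 80 lower. Against pLKO 2, it was -0.21 for shTAZ 1, with 105 lower, and -0.38 for shTAZ 2, with 109 lower. These 115 genes showed the split between the controls as well, with pLKO 2 above pLKO 1 in 107 of 115 and a median difference of 0.30. EBNA1BP2, a large subunit assembly factor, had 1334 and 1019 in shTAZ cells and 1698 and 2143 in pLKO cells (log2 fold change -0.71 ± 0.19, SE, limma adjusted p = 0.479). ESF1, a nucleolar factor of the small subunit side, had 386 and 389.8 in shTAZ cells and 626 and 569 in pLKO cells (log2 fold change -0.62 ± 0.18, SE, limma adjusted p = 0.533). In both genes the groups stood clearly apart, and neither passed. They were picked from their lists by the smallest p, a choice that favours such a gap. Of the lists for neighbouring machines, the 14 genes of the RNA exosome had a median log2 fold change of -0.10 and the 20 of RNA polymerase III one of -0.09, each with 0 called.

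The ribosomal proteins themselves had lower medians in shTAZ cells in each pairing of libraries. Of 77 ribosomal protein genes tested, 75 had a lower mean in shTAZ cells and 72 had both knockdown values below both controls (93.5%), beside 51.0% and 19.0% of all genes tested. By limma 0 passed the adjusted threshold and 21 had an unadjusted p under 0.05, all lower in shTAZ cells, beside 2.72% of all genes tested in that direction. Their median differences were -0.21 and -0.25 for shTAZ 1 against pLKO 1 and pLKO 2, and -0.44 and -0.48 for shTAZ 2 against pLKO 1 and pLKO 2. The controls differed by a median of 0.06 in this list, against 0.39 in the 36 genes. RPS12, picked from the small subunit list by the smallest p, had 4686 and 4177 in shTAZ cells and 6117 and 6220.5 in pLKO cells (log2 fold change -0.48 ± 0.16, SE, limma adjusted p = 0.620). Ribosomal protein transcripts are short, with a median length of 1181 bases. Of the 6515 genes tested with transcripts under 3000 bases, 4157 had a lower mean in shTAZ cells and 27.4% lay below both controls. By limma 279 of these 6515 had an unadjusted p under 0.05 and were lower. With the trend on length and GC content removed, the median log2 fold change of the ribosomal protein genes was -0.27, beside -0.35 before. Whether the lists differ from each other was not tested. The E-box stood in 4 of the 62 ribosomal protein promoters with a window, or 6.45%, and in 30 of 94 promoters of the other biogenesis genes, or 31.9%.

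Host genes of small nucleolar RNAs, which carry the guide RNAs of the box C/D and H/ACA particles in their introns, had a median log2 fold change of -0.51 over 13 genes. Of these, 12 had a lower mean in shTAZ cells, beside 51.0% of all genes tested, and 8 had both knockdown values below both controls (61.5%), beside 19.0%. By limma 7 had an unadjusted p under 0.05, all lower in shTAZ cells, beside 2.72% in that direction, and 0 passed the adjusted threshold. For shTAZ 1 the median difference was -0.09 against pLKO 1, with 8 of 13 lower (51.1% of all genes tested), and -0.53 against pLKO 2. For shTAZ 2 it was -0.50 against pLKO 1 and -0.97 against pLKO 2. The controls differed by a median of 0.37. No coding transcript length was at hand for these genes, so the trend on length and GC content could not be removed. SNHG5 had 923 and 838 normalized reads in shTAZ cells, against 1259.7 and 1522 in pLKO cells (log2 fold change -0.65 ± 0.17, SE, limma adjusted p = 0.457). SNHG1 had 1885 and 1345 in shTAZ cells and 2302 and 2927 in pLKO cells (log2 fold change -0.71 ± 0.20, SE, limma adjusted p = 0.530). In both, all knockdown values lay below all control values, and pLKO 2 was again the highest library. SNHG5 and SNHG1 were picked from the list by the smallest p, which favours such a gap.

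MYC had 1830.3 and 1691 normalized reads in shTAZ cells, against 1636 and 2551 in pLKO cells, with a log2 fold change of -0.22 ± 0.21 (SE, limma adjusted p = 0.860). It was highest in pLKO 2, like 30 of the 36 genes, and lowest in pLKO 1, like 8 of them, with the knockdown values in between. Cell cycle genes ran the other way between the controls. The 18 genes of G2 and mitosis were lower in pLKO 2 than in pLKO 1 in 18 of 18, with a median of -0.30, and the 18 genes of G1/S and S phase had a median of -0.17. Their log2 fold changes between the groups had medians of -0.02 for G2 and mitosis and -0.05 for G1/S and S phase. The controls taken separately gave different signs. For G2 and mitosis, the medians against pLKO 1 were -0.21 for shTAZ 1 and -0.16 for shTAZ 2. Against pLKO 2 they were 0.14 and 0.17. For G1/S and S phase they were -0.19 and -0.11 against pLKO 1, and -0.01 and 0.09 against pLKO 2. The part of cell cycle differences in the gap between the controls was not tested.

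**Figure D4:**
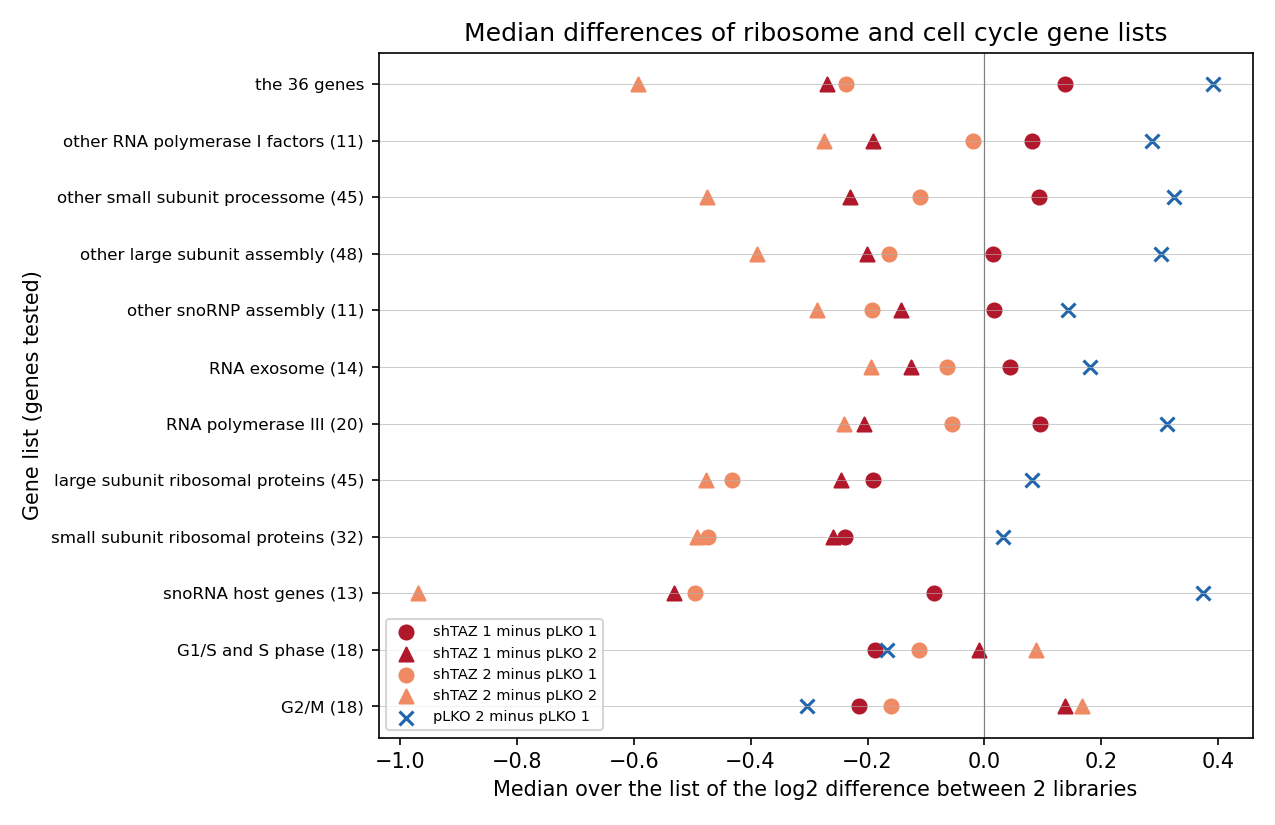
Rows are gene lists with the number of genes tested, and the horizontal axis is the list's median log2 difference between 2 libraries, for each shTAZ library minus each pLKO library and for pLKO 2 minus pLKO 1. The blue cross stands at 0.39 for the 36 genes and at -0.30 for the G2/M genes, and the ribosomal protein lists have all 4 knockdown differences below 0.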

How the data were processed

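RNA-seq of DU145 cells was analysed in 4 libraries, 2 of shTAZ and 2 of pLKO. Per the labels' protocols, mRNA was captured on poly-T beads from 0.2 µg of RNA. The kit's description gives no strand marking, so whether reads of overlapping antisense genes were kept apart is not known. The deposited table gives per gene symbol a signal in each library, the read counts divided by a size factor. Per the file headers, the authors' own columns add a mean signal, the log2 fold change and its error, a score that is the Wald statistic, and a p-value before and after adjustment. The submitters' processing notes name STAR, DESeq2 and hg19 without version or role. For the read counter and the annotation, the sources used here give nothing. All deposited values (100%) were whole multiples of the value of 1 read within 0.001 reads, so reads could be recovered. Library totals ran from 11687727 to 14814918 reads, which limits low genes such as PPAN more than the others. Of 19897 rows, 26 with symbols turned into dates, holding 0.153 to 0.191% of the reads, were left out.

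The 36 genes, the other lists and the tests were chosen with earlier results of these data known. Genes with a value of at least 1 in at least 2 libraries (17737) were fitted on log2(value + 1) with limma 3.58.1 (R 4.3.3, eBayes with an intensity trend, two-sided, no replicate block), with Benjamini-Hochberg adjustment over all of them and a threshold of 0.05. The log2(value + 1) scale understates changes of low genes. limma called 2 genes. edgeR 4.0.16 (quasi-likelihood) called 10 and DESeq2 1.42.0 (Wald test) called 67 on the recovered reads, all 67 of them among the 68 genes under 0.05 in the authors' deposited table. The fits were also run on simulated counts with known changes. All of these were larger than those of the members, so they say nothing about changes of the members' size. All 36 members are named, together with WWTR1, MYC, marker genes and at most 2 genes of each other list by the smallest p. Promoters are from RefSeq (GRCh38.p14) and transcript lengths from GENCODE 29, another build than hg19, so no position of the authors' own was used. Alternatives were 2 other pseudocounts, 2 other filters, 2 other scalings, 3 count models, removal of a length and GC trend (splines, 4 degrees of freedom), a replicate block and each library left out.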

Additional observations from a re-analysis of the deposited data

How the results depend on the processing

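No member was called under any alternative run. The median log2 fold change of the 36 genes lay between -0.23 and -0.21 in every fit on all 4 libraries, and between -0.46 and -0.04 with 1 library left out. The number of members with both shTAZ values below both pLKO values was 10 under quantile normalization and 7 with the length and GC trend removed, against 9. With 1 library left out, which weakens the criterion, it ran from 10 to 31, beside 31.0 to 37.0% of all genes tested. Over the whole table, limma called 2 genes, quantile normalization gave 0, edgeR 10, DESeq2 67 and the replicate block 7, and leaving out 1 library gave 0 to 148, where the highest counts come from genes with a mean value of at least 20, a filter chosen for these fits after seeing the data. WWTR1 kept its log2 fold change (-1.95 under quantile normalization, -2.22 to -1.69 in the 4 leave-outs over all genes tested, against -1.96) but not its call (limma adjusted p of 0.726 under quantile normalization and 0.308 to 0.99988 in these leave-outs, which leave 1 residual degree of freedom); the cause was not tested. Among the members, WDR43 turned to 0.0067 under quantile normalization, and GAR1 to 0.0079 under limma-voom. With the length and GC trend removed, GAR1 turned to 0.047, RRS1 to 0.049, WDR75 to -0.040 and WDR12 to -0.22. With 1 library left out, 15 members had either sign: BYSL (-0.46 to 0.045), DDX10 (-0.35 to 0.084), DDX21 (-0.47 to 0.024), GAR1 (-0.20 to 0.18), NCL (-0.47 to 0.015), NIP7 (-0.53 to 0.13), NOLC1 (-0.60 to 0.090), POLR1B (-0.41 to 0.35), RRP1B (-0.61 to 0.055), RRP9 (-0.57 to 0.0069), RRS1 (-0.46 to 0.21), UTP20 (-0.044 to 0.60), WDR12 (-0.063 to 0.11), WDR43 (-0.35 to 0.30) and WDR75 (-0.12 to 0.16), as did MYC (-0.54 to 0.10). Libraries of the same number did not deviate together: the correlation of their deviations was -0.04, and -0.10 over genes with a mean value of at least 20. With 2 libraries a group this cannot tell whether libraries of the same number were prepared together. With the replicate block the median of the 36 was -0.23 and 9 lay below both controls. In that limma fit 0 of the 36 had an unadjusted p under 0.05, FBL included. With 2 libraries a group the precision was low: members with log2 fold changes of -0.45 (GNL3), -0.46 (NOP16) and -0.60 (PPAN) did not pass the adjusted threshold.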
